A study of Trametes sanguinea with 15 samples.

Results

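The response of Pycnoporus sanguineus CIRM-BRFM 1264 to aspen, a hardwood, was read from 6 of the 15 libraries of the series, the 3 libraries of aspen cultures and the 3 of maltose cultures, which were selected by their labelled carbon source. All 15 libraries were fitted together, and the comparison was made between the aspen and maltose groups. P. sanguineus (Trametes sanguinea in the sample labels) is a white-rot basidiomycete, and mycelium of this 1 strain was harvested on day 3 of liquid culture. According to the labels, maltose was supplied at 20 g/l in the maltose group and at 2.5 g/l in the aspen group, which received ground aspen wood at 15 g/l in addition. The methods of the study instead describe each substrate as the only carbon source, and the labels are followed here. By the labels, the addition of wood and the lower dose of maltose came together, and within this comparison their effects cannot be told apart. The cultures on wheat straw, on Avicel (a microcrystalline cellulose) and on a xylan-galactomannan mixture, with 3 libraries each, also received 15 g/l of their substrate and 2.5 g/l of maltose, and the levels of the genes named below are given on these substrates as well. The study describes its aspen and maltose replicates as independent cultures.

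White-rot fungi degrade all main polymers of wood, namely cellulose, hemicelluloses, pectin and lignin. Cellulose is opened by hydrolases and by copper-dependent lytic monooxygenases, hemicelluloses and pectin by families of glycoside hydrolases and esterases, and lignin by oxidative enzymes such as laccases, after which transporters, cytochromes P450 and dehydrogenases take up and convert the released sugars and aromatic compounds. The enzymes among these that act on the polymers are called carbohydrate-active enzymes (CAZymes). They are numbered by family, with GH for glycoside hydrolases, CE for carbohydrate esterases, PL for polysaccharide lyases, AA for auxiliary redox activities and CBM1 for a cellulose-binding module. Maltose is a readily used sugar, and it served as the reference for the plant substrates.

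The count table listed 14165 gene models by protein ID, without gene names, and 11724 of them had enough counts for a test. Function was read only from the study's published lists of selected genes of this strain. These give some genes a CAZyme family, an enzyme name or a KOG class (a class of eukaryotic orthologous groups). Genes described below as without annotation have none in these lists, and the genome-wide annotation that the study describes was not used. The annotated genes numbered 98, and 5.29% of the genes called higher on aspen were among them, while no gene called lower was. The study chose its lists in part for higher levels on these aspen or wheat straw libraries. This split therefore reflects that choice and is not a result about the genes called lower. Library totals were 34981970 to 39810090 counts on aspen and 29367468 to 31784662 on maltose. Levels are counts per 1000000 counts of the scaled library (CPM), and 3 counts, taken as the floor, corresponded to 0.0577 to 0.0726 CPM on aspen and 0.0955 to 0.121 CPM on maltose. The aspen libraries lay close to each other, with root-mean-square distances in log2 CPM of 0.361 to 0.486. The maltose libraries lay farther apart, at 0.544 between maltose 1 and 2, 0.712 between maltose 2 and 3 and 0.93 between maltose 1 and 3, and every distance between an aspen and a maltose library was larger (1.21 to 1.46). The highest library exceeded the lowest by more than 3-fold in 11% of the genes on maltose and in 2.26% on aspen.

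Aspen cultures differed from maltose cultures in the transcript level of a large part of the genes, in both directions. With an adjusted p (edgeR quasi-likelihood test, Benjamini-Hochberg over all genes tested) under 0.05 and a change of more than 2-fold required for a call, 1684 genes were called higher on aspen, which is 14.4% of the genes tested, and 1630 were called lower, which is 13.9%. All 3 aspen libraries lay above all 3 maltose libraries in 29% of the genes and below them in another 29% (3397 and 3405 genes). Without the fold threshold, 2645 genes were higher and 2888 lower at the same adjusted p. The balance of directions depended on the scaling. Under library size alone, in place of the TMM factors used here, the median change over all genes moved from 0.005 to 0.377 in log2, and 2619 genes were called higher and 914 lower, so that each change below is relative to the TMM scale.

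Most changes were moderate. The median log2 fold change (log2FC, given below ± SE) was 1.68 among the genes called higher and -1.49 among those called lower. Changes over 4-fold were seen in 581 genes higher and 412 lower, over 16-fold in 103 and 68, over 64-fold in 19 and 17 and over 256-fold in 4 and 5. Rises thus outnumbered falls over 4-fold and over 16-fold, and were about as many as falls over 64-fold.

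**Figure D1:**
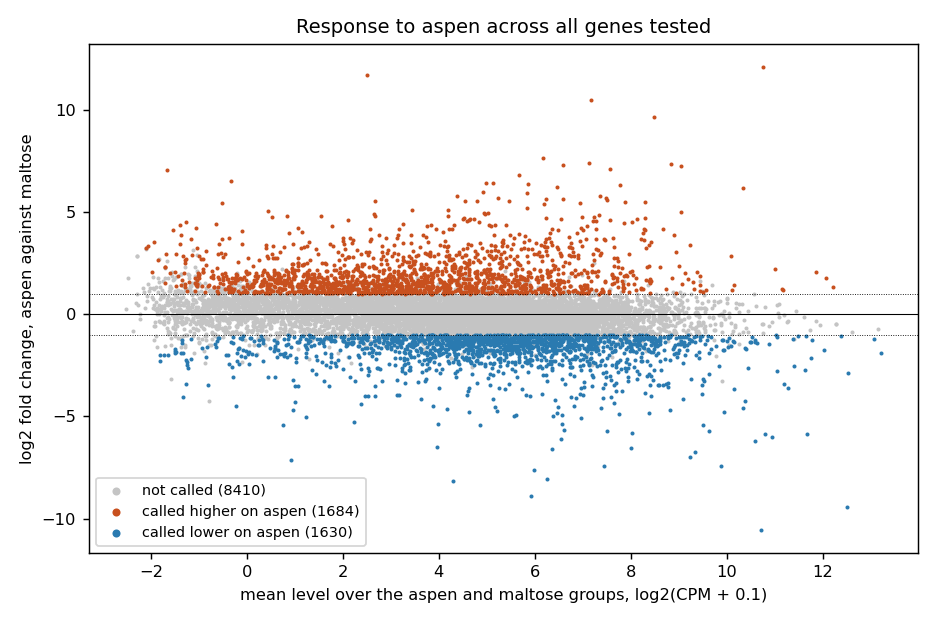
Each point is 1 of the 11724 genes tested, with the mean level over the aspen and maltose groups on the x axis, as log2(CPM + 0.1), and the log2 fold change of aspen against maltose on the y axis. Genes called higher (1684) and lower (1630) are coloured, dotted lines mark the 2-fold threshold, and at the highest levels calls lie mostly below 0. Fitted changes of genes at 0 counts on maltose depend on a prior count.

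The direction of change differed with the level of the gene. Of the 2867 genes with a mean of 1 to 10 CPM over both groups, 22.9% were called higher and 9.24% lower. Of the 1948 genes between 100 and 1000 CPM, 9.39% were called higher and 22% lower, and of the 102 genes above 1000 CPM, 10.8% were higher and 41.2% lower, with a median log2 fold change of -0.83. Scaling by library size alone kept this order but moved its split. Among the genes of 100 to 1000 CPM it gave 14.7% higher and 13.2% lower, and above 1000 CPM 13.7% higher and 27.5% lower.

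Transcripts were spread over more genes on aspen than on maltose. The 10 most abundant genes of a library held 5.82, 6.67 and 6.66% of its counts in aspen 1 to 3 and 9.28, 8.18 and 10.4% in maltose 1 to 3. The groups did not overlap, and the exact two-sided permutation test gave p = 0.1, the smallest that 3 against 3 libraries allow. A total of 623 to 741 genes accounted for 50% of the counts on aspen, against 404 to 471 on maltose (exact permutation p = 0.1). The 1684 genes called higher took up 17.4 to 19.1% of all counts on aspen and 3.27 to 3.99% on maltose. The 1630 genes called lower took up 13 to 14.8% on aspen and 36.2 to 40.2% on maltose. These last shares describe the genes called and are not a further test.

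The 3 substrates outside this comparison held these genes at different levels. Their libraries had entered the filter for low counts, the scaling and the estimate of spread, but not the means compared. Of the 1684 genes called higher on aspen, 60.8% had their highest mean among these 3 on wheat straw, 26.7% on xylan-galactomannan and 12.5% on Avicel, while over all genes tested the shares were 35, 39.5 and 25.5%. Of the 1630 genes called lower, 10.1% were highest on wheat straw, 51% on xylan-galactomannan and 38.9% on Avicel. In the same order, the genes called lower had their lowest mean of the 3 on wheat straw in 66.2% of cases, on xylan-galactomannan in 19.9% and on Avicel in 13.9%, beside 36.2, 34.2 and 29.6% over all genes tested.

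Among the genes with a mean of at least 50 CPM in the higher group, the largest rise was that of 664270, a gene without annotation that is among those the study selected on aspen. It had 0.605, 1.22 and 0.565 CPM in maltose 1 to 3 and 5121, 3266 and 2050.2 CPM in aspen 1 to 3 (log2FC 12.08 ± 1.49, adjusted p = 4.1e-05), so that a gene ranking 10701 by mean level on maltose ranked 10 on aspen. All aspen libraries lay far above all maltose libraries. It was also present at 84.5 ± 89.6 CPM on wheat straw, 12.2 ± 9.1 on Avicel and 249.8 ± 271 on xylan-galactomannan (mean ± SD, n = 3), and aspen was higher than Avicel (log2 fold change 8.16 ± 1.27, adjusted p = 0.00022) and than wheat straw (5.36 ± 1.12, adjusted p = 0.0036).

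The gene with the next largest rise was 1583293, of class KOG4157, a class of N-acetylglucosaminyltransferases with a WSC domain. It had 0.223, 0.203 and 0.161 CPM on maltose and 489, 197 and 183 CPM on aspen (log2FC 10.49 ± 1.39, adjusted p = 7.1e-05). Aspen 1 was the highest of the 3 aspen libraries, and without it the log2 fold change was 9.88. The gene 1571143, without annotation, had 0.382, 0.982 and 1.33 CPM on maltose and 1412, 395 and 350.4 CPM on aspen (log2FC 9.66 ± 1.36, adjusted p = 0.00011). Aspen 1 again stood highest, and the log2 fold change was 8.71 without it. Both genes were low on Avicel, at 1.47 and 2.37 CPM, with 64.5 and 156.9 CPM on xylan-galactomannan.

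The other 7 of the 10 largest rises were those of 1561648, 1600019, 502114, 385598, 1583090, 1757881 and 664022, none of which had an annotation. Their log2 fold changes ran from 6.82 to 7.66, and in all of them the aspen libraries lay above the maltose libraries. Their levels on Avicel fell into separate patterns. Gene 1583090 had 7.87, 7.45 and 5.53 CPM on maltose, 1483, 828 and 859.5 on aspen and 43348, 23883 and 22160.0 on Avicel. It was thus called higher on aspen than on maltose (log2FC 7.25 ± 0.45, adjusted p = 5e-07) and lower than on Avicel (-4.82 ± 0.40, adjusted p = 2.3e-06). The same order, with Avicel above aspen and aspen above maltose, was found for 1561648 (1780.1 CPM on Avicel, 143 on aspen and 0.706 on maltose), for 1600019 (5810.0, 278 and 1.64 CPM) and for 385598 (3436, 191 and 1.22 CPM), and aspen against Avicel was called lower in each (adjusted p = 4.9e-06, 1.5e-05 and 1.6e-05).

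The remaining 3 of the 10 were low on Avicel. Gene 1757881 had 2.87, 2.64 and 2.74 CPM on maltose and 651, 289.9 and 195 on aspen (log2FC 7.10 ± 0.91, adjusted p = 5.3e-05, and 6.46 without aspen 1), with 4.92 ± 1.85 CPM on Avicel. Gene 664022 had 0.924, 0.745 and 1.01 CPM on maltose and 145, 94.4 and 63.2 on aspen (log2FC 6.82 ± 0.78, adjusted p = 2.3e-05), with 2.41 ± 1.6 CPM on Avicel. In both, every aspen library exceeded every library of the other 4 substrates. Gene 502114 had 12.2, 3.25 and 1.37 CPM on maltose and 1367, 751 and 609 on aspen (log2FC 7.33 ± 1.61, adjusted p = 0.0024). Maltose 1 was its highest maltose library, and without it the log2 fold change was 8.61. On Avicel it had 3.7 ± 2.45 CPM and on xylan-galactomannan 557 ± 839, with the wide spread of the latter coming from its library 2.

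A total of 6 genes were near silent on maltose, under 1 CPM in all 3 libraries, and reached at least 10 CPM in all 3 aspen libraries. These were 1583293 and 1561648, described above, with 1606668 (0.764, 0.745 and 0.888 CPM on maltose, and 98.9, 60.1 and 47.8 on aspen), 1242838 (0.637, 0.61 and 0.969 CPM, and 60.1, 32.3 and 29.4), 1569202 (0.541, 0.542 and 0.767 CPM, and 28.9, 15.3 and 18.6) and 1754147 (0.191, 0.271 and 0.888 CPM, and 14.5, 11.2 and 10.7). None of them carries an annotation apart from 1583293. On Avicel, 1606668, 1242838 and 1569202 had far higher means of 963, 572 and 1459 CPM, and aspen was called lower than Avicel in all 3 (adjusted p = 3.3e-05, 5.2e-05 and 2.4e-06), whereas 1754147 was higher on aspen than on Avicel (adjusted p = 0.022). The log2FC of 1754147 against maltose was 4.79, and 5.70 without maltose 3. The reverse was seen in 2 genes, 1758899 and 1588004, which were under 1 CPM on aspen and above 10 CPM on maltose. Gene 1588004 had 14.5, 20.1 and 81.5 CPM on maltose and 0.231, 0.141 and 0 CPM on aspen, with a log2FC of -8.18, and of -7.02 without maltose 3 and -9.01 without aspen 1.

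Only 2 of the genes tested had no count in any maltose library, and both were called higher on aspen. They were singled out after their values were seen. Gene 1588880 had 795, 442 and 311 counts in aspen 1 to 3, which is 11.1 ± 3.93 CPM and at least 104-fold above the mean floor of 3 counts per maltose library (adjusted p = 0.00013), and it was present on wheat straw (24.7 CPM) and Avicel (19.4 CPM) too. Gene 1600423 had 33, 10 and 18 counts (adjusted p = 0.0027). Of the counts from 1 to 20 of a library, 66.5 to 76.5% were even, so that reads may not be independent, and floors and bounds hold only if each count is. Whether both reads of a pair were counted was not tested. No gene tested was without counts in all aspen libraries.

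**Figure D2:**
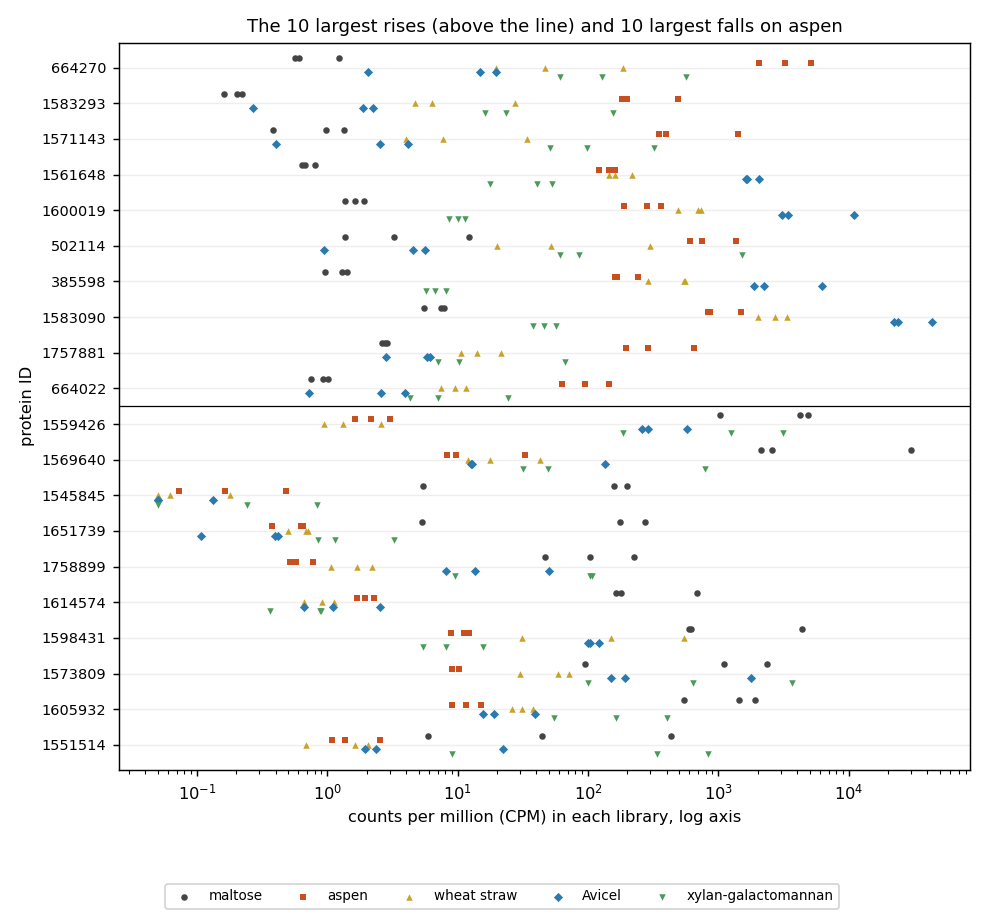
Each point is 1 library, with its level in CPM on a logarithmic x axis (libraries under 0.05 CPM are drawn at 0.05), for the 10 genes with the largest rise and, below the line, the 10 with the largest fall on aspen against maltose. Genes such as 1583090 are highest on Avicel, and genes such as 1757881 are highest on aspen. Among the falls the maltose libraries are spread more widely than the aspen libraries, which differ most for 1545845 and 1569640.

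The 10 largest falls were those of genes without annotation, and most rested on maltose libraries that differed strongly from each other. Gene 1559426 had 4191, 4899.6 and 1030.3 CPM in maltose 1 to 3 and 3.0, 1.64 and 2.15 CPM on aspen (log2FC -10.54 ± 1.16, adjusted p = 1.8e-05). On wheat straw it was also low, at 1.62 ± 0.871 CPM, while it had 374 ± 173 CPM on Avicel and 1519 ± 1488 on xylan-galactomannan, 2 groups with the same low dose of maltose as aspen. Aspen was lower than both (log2 fold change -7.36 ± 1.03, adjusted p = 1e-04 against Avicel, and -9.38 ± 1.12, adjusted p = 4.4e-05 against xylan-galactomannan).

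Gene 1569640 was the most abundant gene of maltose 3. It had 2557, 2121 and 30114 CPM on maltose and 32.5, 9.71 and 8.23 CPM on aspen (log2FC -9.43 ± 1.92, adjusted p = 0.0015). The maltose libraries thus differed by more than 10-fold, and without maltose 3 the log2 fold change was -7.12, with the call kept, while it was -10.33 without aspen 1. Gene 1605932 had 1893, 1441 and 540.0 CPM on maltose and 9.03, 11.5 and 15.2 on aspen (log2FC -6.76 ± 0.77, adjusted p = 2.3e-05), and no single library moved its fold change by more than 1.5-fold.

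The other 7 falls were carried unevenly by the maltose libraries. Maltose 3 was the lowest library for 1545845 (199, 157 and 5.37 CPM on maltose, 0.481, 0.164 and 0.0726 on aspen) and for 1651739 (273, 175 and 5.33 CPM on maltose, 0.654, 0.375 and 0.629 on aspen). Maltose 1 was the highest for 1614574 (689.9, 179 and 162 CPM, with 2.27, 1.69 and 1.94 on aspen) and 1598431 (4398, 596 and 618 CPM, with 12.3, 8.91 and 11.1 on aspen). Without that library their log2 fold changes went from -7.45 to -6.44 and from -7.44 to -5.82, and for 1651739 from -8.08 to -7.33. Maltose 2 was the highest for 1758899 (46.7, 225 and 103 CPM, with 0.577, 0.516 and 0.775 on aspen), with -6.91 without it against -7.65 with it. Maltose 3 was the highest for 1573809 (95.2, 1096 and 2371 CPM, with 9.1, 10.2 and 9.0 on aspen) and 1551514 (5.89, 44.4 and 436 CPM, with 2.54, 1.08 and 1.36 on aspen), and without it the log2 fold changes were -5.98 and -3.91 in place of -6.98 and -6.60. For 1545845, leaving out aspen 1 gave -9.94 in place of -8.89. All 7 remained called under each of these omissions.

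These genes also differed in where else they were low. Genes 1545845, 1651739 and 1614574 had at most 1.75 CPM as a mean on any of the other substrates with 2.5 g/l of maltose. Genes 1573809 and 1551514 were low on aspen but had 1458 ± 1908 and 392 ± 412 CPM on xylan-galactomannan, and aspen was lower than that group in both (adjusted p = 0.0026 and 0.0048). Gene 1598431 had 240.0 ± 266 CPM on wheat straw and 109 ± 11.6 on Avicel, against 9.71 ± 5.21 on xylan-galactomannan.

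In 2 called genes the direction itself rested on maltose 3, and they are named for that reason. Gene 1580131 had 118, 185 and 1935 CPM on maltose and 106, 172 and 192 on aspen, and its log2 fold change of -2.25 became 0.05 without maltose 3. Gene 1588204 had 0.7, 5.15 and 277 CPM on maltose and 6.06, 1.71 and 1.36 on aspen, and its log2 fold change of -4.94 became 0.07. Neither was called in the fit with the replicate number as a block (adjusted p = 0.086 and 0.082) or under library size alone (0.067 and 0.053). No other single library turned the direction of any called gene.

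The genes that took the largest share of the counts were in part the same on both carbon sources. By mean CPM, which favours long genes, 7 genes were in the top 12 on both, and no gene of either top 12 carried an annotation. The most abundant gene on aspen, 1571294, had 6328, 6386 and 7982 CPM on aspen and 12901, 8923 and 12184 on maltose, a difference without overlap that missed the threshold (log2FC -0.72 ± 0.29, adjusted p = 0.056). Genes 1574686, 124855 and 1758622 were likewise in both lists and not called, with overlapping libraries. The 3 others in both lists were called lower on aspen. Gene 1615038, the most abundant on maltose, had 14161, 13123 and 17575 CPM there and 3574, 3719 and 4658 on aspen (log2FC -1.91 ± 0.37, adjusted p = 0.001). Gene 1558729 had 7209, 7653 and 6804 CPM on maltose and 2839, 3716 and 3604 on aspen (log2FC -1.09 ± 0.23, adjusted p = 0.002), and without aspen 1 its log2 fold change was -0.98, short of the threshold. Its call was also lost under library size alone and when tested against the fold threshold itself. Gene 1757751 had 14935, 12033 and 8905 CPM on maltose and 3657, 6729.6 and 5222 on aspen (log2FC -1.20 ± 0.45, adjusted p = 0.044), which was no longer called when any library but maltose 3 was left out, under library size alone (-0.87, adjusted p = 0.091) or with the replicate number as a block (-1.11, adjusted p = 0.055), with an adjusted p of up to 0.56 over all alternatives.

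The other 5 of the top 12 on aspen were all called higher. Beside 664270 these were 1576357 (2136, 2661 and 3320.4 CPM on maltose and 7950.4, 5501 and 6937 on aspen, log2FC 1.33 ± 0.27, adjusted p = 0.0014), 1680668 (2786, 1797 and 1209 CPM on maltose and 3699, 9313 and 6796 on aspen), 1576884 (2098, 1444 and 807 CPM on maltose and 4917, 6614 and 6406 on aspen) and 1652751 (973, 711 and 533 CPM on maltose and 2126, 4660.5 and 3389.5 on aspen). Their libraries did not overlap between the groups, and the log2 fold changes of the last 3 were 1.77 ± 0.43, 2.04 ± 0.46 and 2.20 ± 0.48 (adjusted p = 0.0047, 0.0029 and 0.0023). In a test against the fold threshold itself (glmTreat), 1576357 and 1680668 were not called (adjusted p = 0.21 and 0.094). In contrast to 664270, these 4 already ranked 36, 58, 82 and 201 on maltose. They also led the gains in level, together with 1583090 (above), 1622462, 1645270, 1583166 and 1596703.

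Gene 1596703 was the gain with the lowest starting level apart from 664270 and 1583090. It had 44.9, 27.2 and 33.2 CPM on maltose and 2198, 2515 and 2924 on aspen (log2FC 6.18 ± 0.56, adjusted p = 4.4e-06), and 4351 ± 690.5 CPM on wheat straw, 1204 ± 1056 on xylan-galactomannan and 113 ± 16.9 on Avicel. Gene 1583166 had 349, 259 and 199 CPM on maltose and 1854, 2124 and 1771 on aspen (log2FC 2.83 ± 0.50, adjusted p = 0.00052). Genes 1622462 (1631, 1277 and 1207 CPM on maltose and 2401, 4181 and 3039 on aspen) and 1645270 (1344, 1045 and 1882 CPM on maltose and 3092, 3456 and 3059.5 on aspen) changed little more than 2-fold. Their calls were lost without aspen 2 (log2 fold change 0.99) and without maltose 2 (0.99), respectively.

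The 5 genes of the maltose top 12 that left the top 12 on aspen were all called lower. Gene 1600624 had 6781, 6608 and 5753 CPM on maltose and 129, 85.8 and 110.1 on aspen (log2FC -5.88 ± 0.48, adjusted p = 2.3e-06), and fell in rank from 9 to 1699. It had 4931 ± 182 CPM on Avicel and 5310.3 ± 2968 on xylan-galactomannan, and 455 ± 134 on wheat straw. Gene 1668195 had 8264, 10003 and 13004 CPM on maltose and 1219.6, 1344 and 1750.1 on aspen (log2FC -2.86 ± 0.40, adjusted p = 1e-04), with a similar order of substrates (10505 ± 1986 CPM on Avicel, 7976 ± 3648 on xylan-galactomannan and 2216 ± 805 on wheat straw). Beside 1569640 (above), the 2 others were 1759022 (4554, 6231 and 8553 CPM on maltose and 2353, 1516 and 1935 on aspen) and 1578428 (5182, 788 and 10947 CPM on maltose and 1228, 1229.5 and 1422 on aspen). The last overlapped between the groups, and its call was lost without maltose 3 or any aspen library (-1.21 without maltose 3, against -2.12), while that of 1759022 was lost without aspen 2, aspen 3 or maltose 3 (-1.48).

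Large losses of level were also seen in 1606996 (5074, 5205 and 6151 CPM on maltose and 861, 914 and 736 on aspen, log2FC -2.71 ± 0.33, adjusted p = 3.2e-05), 1594741 (2251, 6086 and 5373 CPM on maltose and 366, 349 and 410.0 on aspen, log2FC -3.61 ± 0.61, adjusted p = 0.00041) and 1577846 (3783, 848 and 8149.6 CPM on maltose and 262, 442 and 506 on aspen, log2FC -3.4, and -2.52 without maltose 3). Of the 100 genes with the highest mean on aspen, 26 were called higher and 15 lower, and of the 100 highest on maltose, 5 and 57, beside 14.4 and 13.9% of all genes, with 51 genes in both. Under library size alone these counts were 31 and 5 for aspen and 5 and 41 for maltose. The ranking itself favours these directions. Levels of different genes can be compared only per length, and 1594741, the longest gene named here at 11953 bases, ranked 441 on maltose by CPM per kilobase against 17 by CPM. By CPM per kilobase, the 10 highest genes on aspen shared 6 members with the top 12 by CPM. The highest was 1576357 (14338 CPM per kilobase on aspen and 5708 on maltose), followed by 124855 (10174 and 14027) and 1531374 (7122 and 5072). The 4 genes that entered by length, 1531374, 1676644, 1598012 and 1606211, were 324 to 759 bases long and none was called (log2 fold changes of CPM from -0.75 to 0.49).

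**Figure D3:**
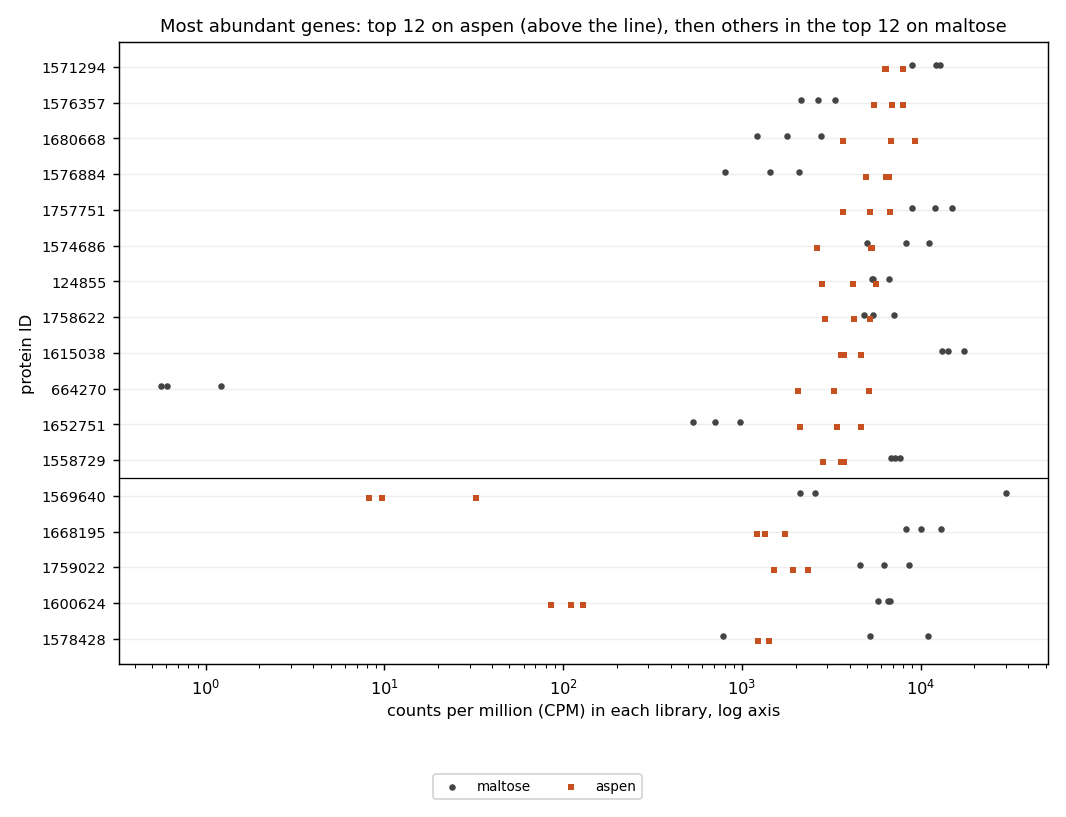
Each point is 1 library, with its level in CPM on a logarithmic x axis, for the 12 genes with the highest mean on aspen and, below the line, the 5 further genes of the top 12 on maltose. Gene 664270 alone moves from near 1 CPM on maltose to the top 12 on aspen, and 1569640 and 1600624 move the opposite way.

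The 98 annotated genes belong to lists that the study chose in part because they were higher on these aspen or wheat straw libraries, so that their direction is not independent evidence, and what follows describes which functions are named and how large each change was. Of the 98, 89 were called higher on aspen than on maltose and none lower, against 14.4 and 13.9% of all genes tested. Their median log2 fold change was 2.75, and it was 0.005 over all genes. In the test against the fold threshold, 68 of the 98 were called higher, among them 2 of the 7 signalling genes, 1 of the 3 genes of amino acid metabolism, 3 of the 6 cytochromes P450 and 5 of the 10 genes of other KOG classes. Together they took up 1.91 to 2.1% of the counts on aspen and 0.231 to 0.298% on maltose. Among the 100 most abundant genes on aspen only 1 carried an annotation, the glycosyltransferase 1641584 (below). Against Avicel, 59 of the 98 were called higher on aspen and 10 lower (14.8 and 12.8% of all genes), against wheat straw 10 higher and 18 lower (5.89 and 7.14%), and against xylan-galactomannan 47 higher and 10 lower (11.5 and 14.7%). These comparisons share the aspen libraries with the one against maltose. The counts against Avicel and wheat straw also depend on how the study chose the genes. Its aspen and wheat straw lists came from groups of genes with high levels there, but not on maltose or Avicel. Another group of 8 genes was clustered by levels that included those on Avicel, and all 8 were called lower on aspen than on Avicel.

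**Figure D4:**
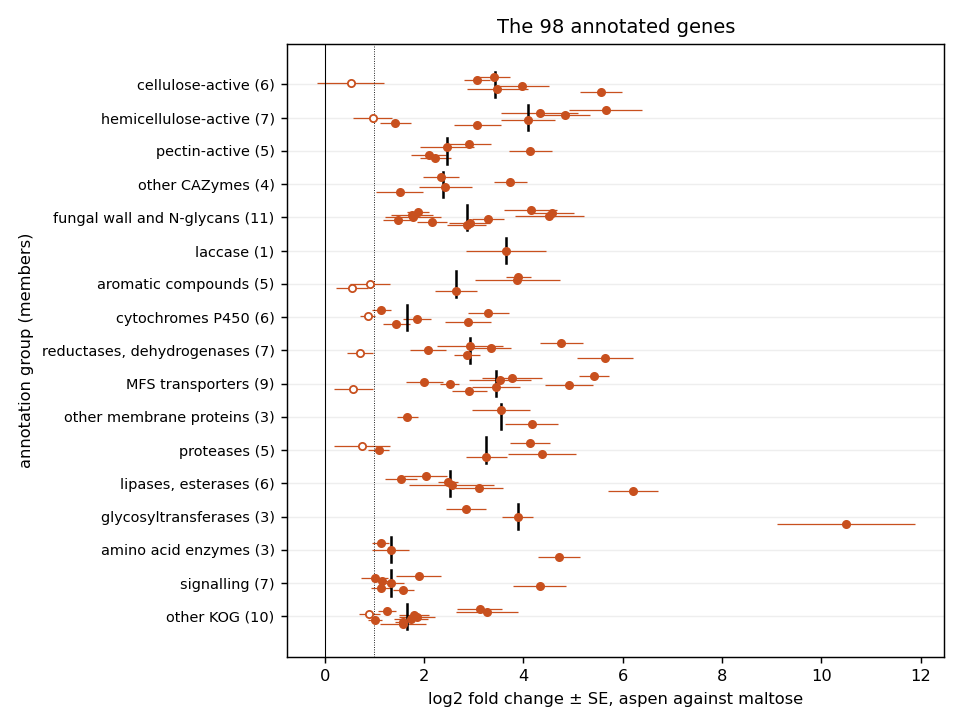
Each point is 1 of the 98 annotated genes, with its log2 fold change ± SE of aspen against maltose on the x axis, by annotation group with the number of members in brackets. Filled points were called higher, open points were not called, the black bar is the median of the group, and the dotted line marks the 2-fold threshold. All points lie above 0.

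Of the cellulose-active enzymes 5 of 6 were higher on aspen (median log2 fold change of the 6 members 3.44). The GH6 gene with a cellulose-binding module (1567787), of a family of cellobiohydrolases, had 7.01, 9.48 and 5.97 CPM on maltose and 464, 281 and 319 on aspen. Every aspen library lay above every maltose library, as it did for the other 4 genes called. These were the cellobiose dehydrogenase AA8-AA3_1 (1672751, 312, 188 and 162 CPM on aspen, log2FC 3.98 ± 0.54, adjusted p = 7.1e-05), the lytic monooxygenase AA9-CBM1 (1583489, 256, 168 and 173 CPM, log2FC 3.48 ± 0.61, adjusted p = 0.00055), GH131-CBM1 (571793, 188, 139 and 121 CPM, log2FC 3.4 ± 0.34, adjusted p = 7.9e-06) and GH74 (1721886, 289.8, 164 and 142 CPM, log2FC 3.06 ± 0.26, adjusted p = 3.1e-06), a family that includes xyloglucanases. The cellobiohydrolase family gene GH7 (1675671) was not called, at 32.7, 56.3 and 20.6 CPM on maltose and 36.2, 44.2 and 77.1 on aspen with overlapping libraries (log2FC 0.52 ± 0.67, adjusted p = 0.55).

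All 6 cellulose-active genes were far lower on aspen than on Avicel. The study had placed all 6 in a single group, clustered by similar levels on maltose, Avicel, aspen and wheat straw. Their shared order on these substrates is therefore not independent evidence. The largest difference was that of GH7, with 61159, 17907 and 16007 CPM on Avicel (log2 fold change of aspen against Avicel -9.24 ± 0.96, adjusted p = 1e-05), and the smallest that of GH74, with 2947 ± 507 CPM (-3.89 ± 0.27, adjusted p = 8.7e-07). On wheat straw all 6 had higher means than on aspen, and 4 of them were called lower on aspen (adjusted p = 0.022 for GH6 and 0.0068 for AA8-AA3_1). On xylan-galactomannan, 5 of the 6 were called lower than on aspen, with 15 CPM of GH74 and 20.9 CPM of GH6. Together the 6 genes summed to 983 to 1546 CPM on aspen and 91.2 to 145.9 on maltose.

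Of the hemicellulose-active enzymes 6 of 7 were higher on aspen (median 4.09). A GH43 gene (1695354), of a family of arabinofuranosidases and xylosidases, changed most, from 11.2, 6.6 and 3.03 CPM on maltose to 144, 546 and 366 on aspen (log2FC 5.66 ± 0.73, adjusted p = 5.8e-05). On Avicel it had only 11.2 ± 6.8 CPM, and aspen was called higher than Avicel (4.97 ± 0.70, adjusted p = 0.00011). The mannanase-family gene CBM1-GH5_7 (1672345) had 13.3, 13 and 6.7 CPM on maltose and 398, 286 and 260.4 on aspen (log2FC 4.84 ± 0.50, adjusted p = 1e-05), with 1679 ± 993 CPM on Avicel. The glucuronoyl esterase CE15 (1679979), of a family that cleaves ester bonds between lignin and glucuronic acid of xylan, rose from 0.955, 1.49 and 1.37 CPM on maltose to 21.6, 25.1 and 29.9 on aspen (log2FC 4.33 ± 0.78, adjusted p = 0.00067). It was highest on xylan-galactomannan, at 206 ± 169.8 CPM, above aspen (log2 fold change of aspen against it -3.01 ± 0.70, adjusted p = 0.004).

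The acetyl esterase CE16 (1592100) had 14.7, 11 and 3.79 CPM on maltose and 94.8, 235 and 176 on aspen (log2FC 4.09 ± 0.54, adjusted p = 6.5e-05). A further GH43 gene (1561085) rose from 5.68 CPM on maltose to 47.8 on aspen (log2FC 3.08 ± 0.48, adjusted p = 0.00024) and the fucosidase-family gene GH95 (1567160) from 29.6 to 79.4 CPM (log2FC 1.43 ± 0.31, adjusted p = 0.0024). In each of these the libraries of the groups did not overlap. The GH2 gene (1664834), of a family with mannosidases and galactosidases, had 81.7, 73.9 and 45.4 CPM on maltose and 105, 143 and 146 on aspen, also without overlap, but it was not called (log2FC 0.97 ± 0.39, adjusted p = 0.057). Under library size alone and with the length trend removed it was called. On xylan-galactomannan it had 415 ± 279 CPM, above aspen (-1.66 ± 0.40, adjusted p = 0.0046).

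All 5 pectin-active genes were higher on aspen (median 2.47). A polygalacturonase-family GH28 gene (1577230) had 9.43, 7.52 and 9.28 CPM on maltose and 141, 175 and 148 on aspen (log2FC 4.14 ± 0.42, adjusted p = 9.7e-06), and another (1738933) had 31, 22.5 and 12.9 CPM on maltose and 172, 168 and 156 on aspen (log2FC 2.90 ± 0.46, adjusted p = 0.00023). They differed on Avicel, with 18.9 ± 3.39 CPM for the former and 2871 ± 1399.9 for the latter, so that aspen was above Avicel in one (log2 fold change 3.03 ± 0.40) and below it in the other (-4.12 ± 0.48). The GH88 gene (1428239), of a family of unsaturated glucuronyl hydrolases, had 36.1, 27.4 and 31.4 CPM on maltose and 108, 188 and 149 on aspen (log2FC 2.23 ± 0.31, adjusted p = 8.7e-05). The pectin methylesterase CE8 (1577721) rose from 4.05 CPM on maltose to 22.5 on aspen (log2FC 2.47 ± 0.55, adjusted p = 0.0027) and the glucuronidase-family gene GH79 (1561925) from 12.6 to 53.6 CPM (log2FC 2.10 ± 0.35, adjusted p = 0.00035).

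The 4 other CAZymes were also higher on aspen, 3 of them also in the test against the fold threshold. A PL8 lyase (1592999) rose from 7.32, 12.1 and 13.3 CPM on maltose to 118, 179 and 139.6 on aspen (log2FC 3.74 ± 0.34, adjusted p = 4.2e-06). The amylase-family gene GH13_1 (1682233), of a family that acts on starch, rose from 51.2, 58.9 and 87 CPM on maltose to 277, 382 and 342 on aspen (log2FC 2.34 ± 0.36, adjusted p = 0.00021). The GH3 genes, of a family that includes beta-glucosidases, were 1577052 (log2FC 2.43 ± 0.53, adjusted p = 0.0024) and 1537322 (log2FC 1.51 ± 0.47, adjusted p = 0.018). The call of 1537322 was lost without aspen 3 (log2 fold change 1.36), maltose 1 (1.35) or maltose 3 (1.44).

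**Figure D5:**
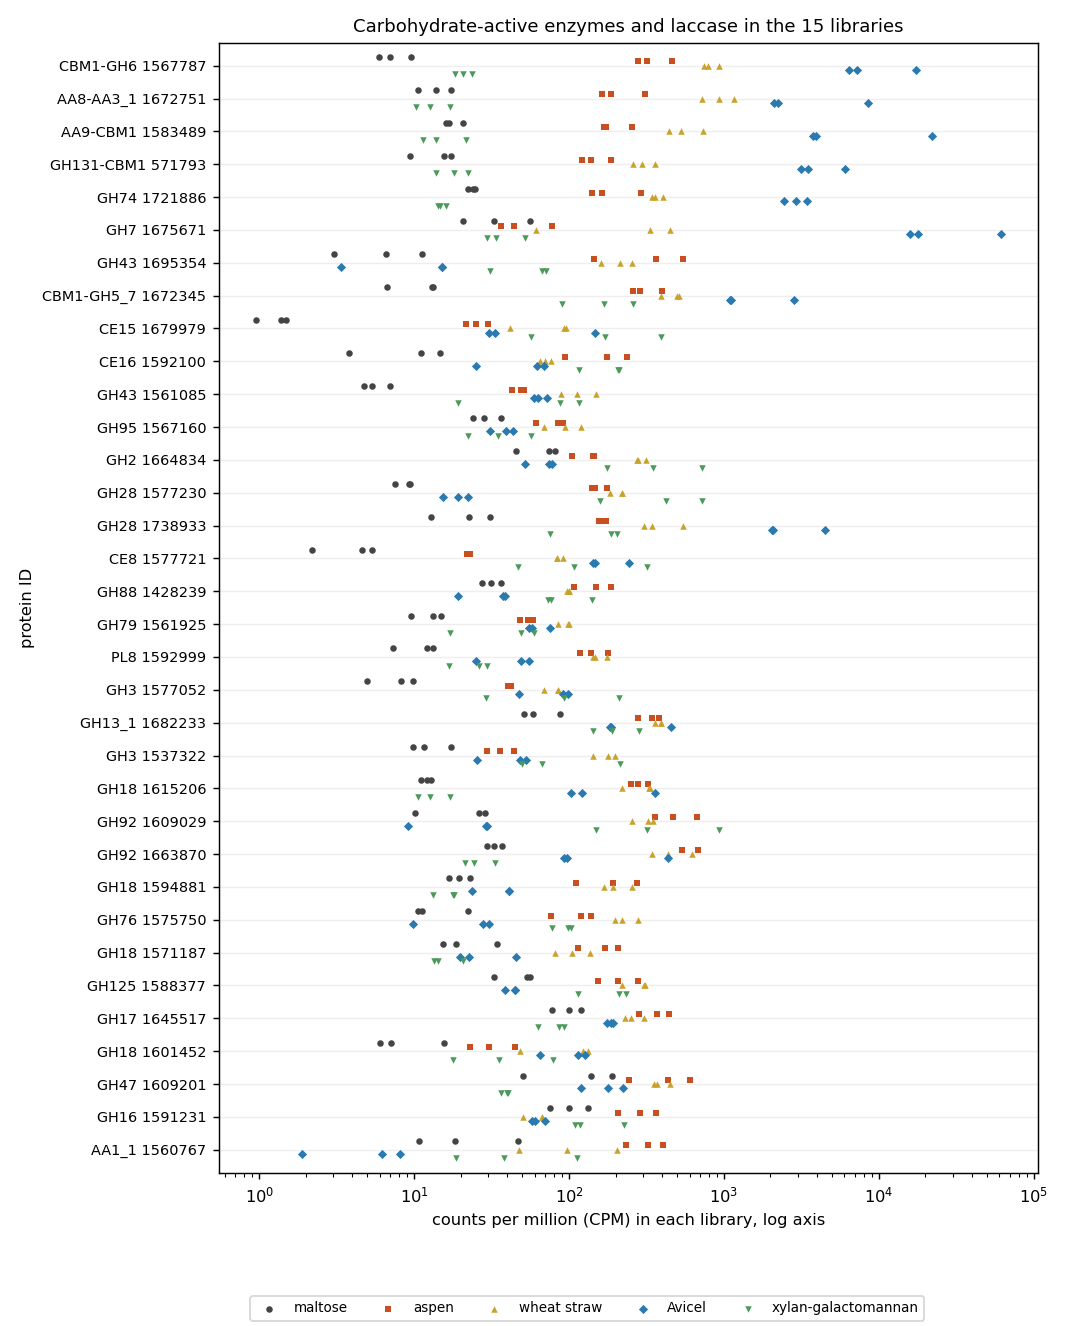
Each point is 1 of the 15 libraries, with its level in CPM on a logarithmic x axis, for the 33 annotated CAZymes and the laccase AA1_1, ordered by group and fold change. For the cellulose-active genes at the top, Avicel is highest and aspen lies between Avicel and maltose, apart from GH7, where aspen overlaps maltose, while for the laccase, GH92 and GH125 genes aspen lies above Avicel.

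The laccase AA1_1 (1560767), a copper oxidase of phenols, had 47.1, 18.4 and 10.8 CPM on maltose and 235, 405 and 322 on aspen (log2FC 3.65 ± 0.80, adjusted p = 0.0025, and 4.45 without maltose 1). The libraries did not overlap. It had 5.38 ± 3.17 CPM on Avicel, 56.4 ± 49.7 on xylan-galactomannan and 116 ± 79.5 on wheat straw. Aspen was above Avicel (5.89 ± 0.90, adjusted p = 0.00019) and xylan-galactomannan (adjusted p = 0.017), and the difference from wheat straw did not pass the test (1.47 ± 0.74, adjusted p = 0.15). It was the only laccase or peroxidase among the annotated genes.

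Of 5 genes for the conversion of aromatic compounds, 3 were called higher on aspen. These were a KOG3855 gene (568134), of a class of ubiquinone-related monooxygenases (6.31, 7.35 and 5.57 CPM on maltose and 75.9, 126 and 86.1 on aspen, log2FC 3.90 ± 0.25, adjusted p = 6.5e-07), the homogentisate dioxygenase 1615426 (KOG1417, 5.48, 5.69 and 5.81 CPM on maltose and 73.7, 113 and 64.1 on aspen, log2FC 3.88 ± 0.85, adjusted p = 0.0025), which opens an aromatic ring, and the flavin monooxygenase 1570907 (KOG1399, 32.7, 17.6 and 17.5 CPM on maltose and 123, 159 and 142 on aspen, log2FC 2.64 ± 0.42, adjusted p = 0.00026). Homogentisate dioxygenase had 72.2, 78.3 and 863 CPM on wheat straw, where library 3 stood far above the others. Not called were a dioxygenase of hydroxyquinol (1588935, 26, 24.2 and 40.4 CPM on maltose and 59.9, 54.7 and 56.2 on aspen, log2FC 0.91 ± 0.40, adjusted p = 0.074) and the KOG1176 ligase 1582251 (34, 37.3 and 88 CPM on maltose and 70.3, 75.5 and 86.9 on aspen, log2FC 0.55 ± 0.32, adjusted p = 0.17), of a class that activates acids with coenzyme A. In 1582251 maltose 3 lay above all aspen libraries, and without maltose 3 the gene was called, at 1.12. Both were called lower on aspen than on wheat straw (adjusted p = 0.011 and 0.0022).

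Of 6 cytochromes P450, a family of monooxygenases that oxidise small hydrophobic molecules, 5 were called higher on aspen (median of the 6 members 1.65). Gene 1742239 (KOG0156) had 40.6, 43.5 and 27.3 CPM on maltose and 226, 499 and 369 on aspen (log2FC 3.30 ± 0.42, adjusted p = 4.4e-05), and gene 1672037 (KOG0157) had 48.2, 41.8 and 27.9 CPM on maltose and 160.1, 418 and 293 on aspen (log2FC 2.88 ± 0.46, adjusted p = 0.00028). Aspen 2 was the highest aspen library of both. On wheat straw they had 519 ± 183 and 206 ± 41.2 CPM, and neither was called between aspen and wheat straw. The others called were 1673961, 1589162 and 187698 (log2 fold changes 1.85, 1.45 and 1.14). Gene 1680152 had non-overlapping libraries and a small adjusted p but a change under 2-fold (61.9, 54.4 and 54.5 CPM on maltose and 104, 101 and 105 on aspen, log2FC 0.86 ± 0.16, adjusted p = 0.00076).

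The reductases and dehydrogenases were higher in 6 of 7 genes (median 2.92). The aldo/keto reductase 1578979 (KOG1577) had 2.83, 3.83 and 2.18 CPM on maltose and 102, 192 and 149.7 on aspen (log2FC 5.64 ± 0.57, adjusted p = 9e-06), and it was still higher on xylan-galactomannan, at 1013 ± 627 CPM. The sorbitol dehydrogenase-class gene 1656427 (KOG0024), of enzymes that oxidise sugar alcohols, had 16.9, 6.81 and 8.4 CPM on maltose and 418, 234 and 224 on aspen (log2FC 4.77 ± 0.44, adjusted p = 5.2e-06). Unlike the former it was higher on aspen than on every other substrate, with adjusted p = 0.00086 against wheat straw, 6.6e-05 against Avicel and 0.0012 against xylan-galactomannan. A short-chain dehydrogenase (1611298, KOG0725) rose to 45.8, 68.9 and 81 CPM (log2FC 3.35 ± 0.41, adjusted p = 4.1e-05) and another sorbitol dehydrogenase-class gene (1613859) to 133, 126 and 92.3 CPM (log2FC 2.92 ± 0.66, adjusted p = 0.003). The short-chain dehydrogenase 1593701 was below the fold threshold, and above it without maltose 3 (1.01) (30.1, 28.1 and 49.5 CPM on maltose and 59.1, 58.2 and 58.8 on aspen, log2FC 0.71 ± 0.26, adjusted p = 0.037).

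Transporters of the major facilitator superfamily, which carry sugars and other small solutes, were higher in 8 of 9 genes (median 3.45). Gene 292291 (KOG0255) had 7.07, 4.81 and 4.84 CPM on maltose and 203, 324 and 192 on aspen (log2FC 5.42 ± 0.30, adjusted p = 3.9e-07), and was called higher on aspen than on each of the other substrates. The KOG0254 genes 1593966 (1.62, 1.83 and 2.58 CPM on maltose and 40.8, 79.9 and 61 on aspen, log2FC 4.92 ± 0.48, adjusted p = 7.7e-06), 1673228 (17.8, 12.2 and 13.2 CPM on maltose and 145, 249 and 196 on aspen, log2FC 3.77 ± 0.61, adjusted p = 0.00032) and 1672735 (3.66, 6.23 and 9.2 CPM on maltose and 73.1, 76.4 and 69.7 on aspen, log2FC 3.52 ± 0.62, adjusted p = 0.00057) followed, and these had still higher means on xylan-galactomannan. None of these differences from xylan-galactomannan was called (adjusted p = 0.085, 0.078 and 0.24), and its library 2 was the highest in each. All 8 genes called were also called higher on aspen than on Avicel. The gene not called, 1589964, had 21.3, 17.9 and 35.9 CPM on maltose and 25.9, 43.2 and 43.1 on aspen (log2FC 0.58 ± 0.39, adjusted p = 0.24), with 153 ± 9.93 CPM on wheat straw.

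The 3 other membrane proteins were higher on aspen, and in each the aspen libraries lay above the maltose libraries. The aquaporin-class gene 1618911 (KOG0224), a channel for water or glycerol, had 9.84, 14 and 25 CPM on maltose and 355, 221 and 304 on aspen (log2FC 4.17 ± 0.53, adjusted p = 5.2e-05). The lipid-exporting ABC transporter 1755315 (KOG0059) had 19, 19.3 and 19.6 CPM on maltose and 287, 227 and 169.7 on aspen (log2FC 3.56 ± 0.58, adjusted p = 0.00034), and the calcium/proton antiporter 1674731 (KOG1397) had 53.3, 37.6 and 35.7 CPM on maltose and 99.4, 156 and 147 on aspen (log2FC 1.67 ± 0.21, adjusted p = 4.6e-05).

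Of 5 proteases 4 were higher (median of the 5 members 3.25). A tripeptidyl-peptidase (1643269) had 2.8, 2.64 and 6.14 CPM on maltose and 69.6, 81.6 and 88.7 on aspen (log2FC 4.38 ± 0.68, adjusted p = 0.00022), and the aspartyl protease 174056 (KOG1339) had 15.3, 9.04 and 17 CPM on maltose and 313, 210.2 and 203 on aspen (log2FC 4.14 ± 0.40, adjusted p = 7.5e-06). The aspartyl protease was higher on aspen than on each of the other substrates (adjusted p = 0.0011 against wheat straw). A serine carboxypeptidase (1608570) had 55.9, 47 and 79 CPM on maltose and 746, 422 and 568 on aspen (log2FC 3.25 ± 0.41, adjusted p = 4.7e-05). The mitochondrial intermediate peptidase 1646990 (KOG2090) was called at log2FC 1.09 ± 0.21, adjusted p = 0.00099, and this was lost without aspen 2 (0.93) or maltose 2 (0.99). The aspartyl protease 1682142 was not called (21.4, 26.3 and 80.9 CPM on maltose and 72.3, 76.6 and 67.5 on aspen, log2FC 0.75 ± 0.56, adjusted p = 0.29), and without maltose 3, its highest maltose library, it was called at 1.60.

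All 6 lipases and esterases were higher on aspen (median 2.52), 4 of them also in the test against the fold threshold. The predicted lipase 1581796 (KOG4569) had 2.55, 2.84 and 1.61 CPM on maltose and 247, 147 and 125 on aspen (log2FC 6.20 ± 0.51, adjusted p = 2.6e-06), with 130.1 ± 36 CPM on wheat straw and 10.1 ± 4.86 on Avicel. It showed the largest rise of an annotated gene after 1583293. The carboxylesterases of class KOG4389 were 1586203 (7.71, 7.21 and 6.1 CPM on maltose and 35.8, 66.2 and 79.1 on aspen, log2FC 3.11 ± 0.48, adjusted p = 0.00023) and 1674301 (9.59, 10.8 and 14.5 CPM on maltose and 48.9, 75.4 and 70.7 on aspen, log2FC 2.49 ± 0.20, adjusted p = 1.9e-06). The lipase 1604789 had 1.91, 6.2 and 14.7 CPM on maltose and 26.6, 54.4 and 52.8 on aspen (log2FC 2.56 ± 0.86, adjusted p = 0.026). It was no longer called without aspen 2 (2.39), aspen 3 (2.42), maltose 1 (2.10) or maltose 2 (2.43), and it was 3.46 without maltose 3.

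All 11 enzymes that act on chitin, fungal wall glucans and the glycans of glycoproteins were higher on aspen (median 2.86), 8 of them also in the test against the fold threshold. They summed to 2518, 3917 and 3049 CPM in aspen 1 to 3 and 509, 595 and 423 CPM in maltose 1 to 3. The chitinase-family GH18 gene 1615206 had 12.1, 11 and 12.8 CPM on maltose and 250.4, 325 and 279 on aspen (log2FC 4.57 ± 0.44, adjusted p = 6.4e-06). Other GH18 genes were 1594881 (22.8, 19.4 and 16.8 CPM on maltose and 111, 274 and 191 on aspen, log2FC 3.29 ± 0.33, adjusted p = 7.9e-06), 1571187 (15.4, 18.6 and 34.2 CPM on maltose and 114, 208 and 172 on aspen, log2FC 2.86 ± 0.40, adjusted p = 9.6e-05) and 1601452 (log2FC 1.78 ± 0.56, adjusted p = 0.019), whose call was lost without aspen 3 (1.48), maltose 1 (1.54) or maltose 2 (1.60). The mannosidase-family GH92 gene 1609029 had 28.6, 26.1 and 10.2 CPM on maltose and 360.0, 671 and 467 on aspen (log2FC 4.53 ± 0.69, adjusted p = 0.00021), and 1663870 had 32.8, 36.8 and 29.6 CPM on maltose and 539.6, 679.9 and 536 on aspen (log2FC 4.14 ± 0.54, adjusted p = 6.4e-05).

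The GH92 genes differed on the other substrates. Gene 1663870 had 26.3 ± 6.08 CPM on xylan-galactomannan and 1609029 had 468 ± 414, so that aspen was above this group in the former (log2 fold change 4.48 ± 0.55, adjusted p = 5.7e-05) and not called in the latter (0.09 ± 0.60, adjusted p = 0.91). Mannanase and mannosidase genes of families GH76 (1575750, log2FC 2.92 ± 0.42, adjusted p = 0.00013), GH125 (1588377, log2FC 2.17 ± 0.30, adjusted p = 9.1e-05) and GH47 (1609201, log2FC 1.76 ± 0.42, adjusted p = 0.0041) were higher on aspen, as were the glucanase-family genes GH17 (1645517, log2FC 1.88 ± 0.22, adjusted p = 2.3e-05) and GH16 (1591231, log2FC 1.48 ± 0.30, adjusted p = 0.0013). The GH16 gene was the only one of the 11 called higher on aspen than on wheat straw (286 ± 77.4 against 61.7 ± 9.46 CPM, log2 fold change 2.21 ± 0.30, adjusted p = 0.00027).

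The glycosyltransferase group held 3 genes. Gene 1583293 (above) was placed in it by its class KOG4157 alone, a class that the PL8 lyase 1592999 carries too. The UDP-glucosyl transferase 1641584, of enzymes that attach glucose to small molecules, had 50.6, 55.6 and 75.6 CPM on maltose and 799, 1092 and 791 on aspen (log2FC 3.88 ± 0.31, adjusted p = 2.3e-06). It was higher on aspen than on each of the other substrates. Another (1668510) had 6.72, 7.08 and 10.8 CPM on maltose and 61.5, 58.5 and 57.3 on aspen (log2FC 2.85 ± 0.40, adjusted p = 1e-04), with no call against the other 3 substrates. Of the 3 enzymes of amino acid metabolism, the KOG2964 gene 1583815, of the arginase family, had 5.7, 6.33 and 4.56 CPM on maltose and 152, 164 and 120.1 on aspen (log2FC 4.71 ± 0.42, adjusted p = 4.3e-06). The cystathionine lyase-class gene 1596362 (KOG0053, log2FC 1.33 ± 0.37, adjusted p = 0.01) and the subunit of methylcrotonyl-CoA carboxylase 1671196 (KOG0238, log2FC 1.12 ± 0.18, adjusted p = 0.00022) changed less, and the call of 1671196 was lost without aspen 1 (0.96).

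All 7 signalling genes were called, but mostly close to the threshold (median 1.34), and only 2 of them in the test against the fold threshold. The exception was the KOG1187 protein kinase 1602759, with 1.31, 2.51 and 5.89 CPM on maltose and 61.5, 62.2 and 69.6 on aspen (log2FC 4.33 ± 0.54, adjusted p = 4.2e-05). Next were a GTPase-activating protein (1660524, 101, 82.7 and 66.7 CPM on maltose and 200.4, 425 and 303 on aspen, log2FC 1.89 ± 0.45, adjusted p = 0.0041), the kinase 1572561 (log2FC 1.59 ± 0.21, adjusted p = 6e-05) and the formin 1604213 (KOG1922, log2FC 1.34 ± 0.26, adjusted p = 0.00093), which builds actin filaments. The phosphatase 1620638 (KOG0372, 1.16 ± 0.21) and the kinase 1659679 (1.01 ± 0.27) are named because a single library ended their calls, with 0.97 without aspen 2 for 1620638, and 0.90 without aspen 3 or 0.96 without maltose 1 for 1659679.

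The 10 other genes with a KOG class were higher in 9 cases (median 1.65). Gene 1636400 (KOG2992) had 21, 13.4 and 7.35 CPM on maltose and 103, 139.6 and 162 on aspen (log2FC 3.27 ± 0.62, adjusted p = 0.00092), gene 1674893 (KOG4297) had 29.4, 28.9 and 40.3 CPM on maltose and 179, 359 and 320.3 on aspen (log2FC 3.12 ± 0.45, adjusted p = 0.00014), and the ubiquitin hydrolase 1598804 (KOG1870) had 31.6, 31.3 and 29.4 CPM on maltose and 95.6, 131 and 108 on aspen (log2FC 1.86 ± 0.35, adjusted p = 0.00095). Their libraries did not overlap. Gene 1605773 (KOG0271) followed (log2FC 1.81 ± 0.30, adjusted p = 0.00035), and 1099800 (1.57 ± 0.47) and 1566981 (1.02 ± 0.14) lost their calls without maltose 3 (1.33 and 0.92). Gene 1610214 (KOG2146) was not called (77.8, 60.3 and 51.4 CPM on maltose and 106, 114 and 133 on aspen, log2FC 0.90 ± 0.21, adjusted p = 0.0039), but was without maltose 1 (1.08).

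A further 68 genes of the study's lists, chosen in part for higher levels on these aspen or wheat straw libraries, had no annotation. Of these, 66 were called higher on aspen, beside 14.4% of all genes tested, and their direction is not independent evidence. The 2 others, 1596844 and 1617673, had non-overlapping libraries but changes under 2-fold (log2FC 0.91 ± 0.13, adjusted p = 0.00011, and log2FC 0.91 ± 0.17, adjusted p = 0.00093), which library size alone or removal of the length trend brought past it. After 664270, those that took the largest share of counts on aspen were 1672714 (25, 26.1 and 43.9 CPM on maltose and 1593, 844 and 641 on aspen, log2FC 5.02 ± 0.71, adjusted p = 0.00011), 502114 and 1571143 (above), 1651875 (10.6, 9.11 and 21.5 CPM on maltose and 570.4, 746 and 531 on aspen, log2FC 5.49 ± 0.50, adjusted p = 4.4e-06) and 1689740 (17.1, 23.8 and 29 CPM on maltose and 405, 668 and 748 on aspen, log2FC 4.70 ± 0.28, adjusted p = 5e-07). Together the 68 genes took up 1.96 to 3.17% of the counts on aspen and 0.166 to 0.182% on maltose.

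The study's aspen selection comprised 91 genes, of which 54 were also in its wheat straw selection and 37 were not. All 91 were called higher on aspen than on maltose, as their selection required, with a median log2 fold change of 3.16 for the 54 shared genes and 1.86 for the 37 others. Against wheat straw, 15 of the 37 and 9 of the 54 were called higher on aspen, and 0 and 2 lower. Over all genes, 5.89% were called higher and 7.14% lower in that comparison. Against Avicel, 34 of the 37 and 48 of the 54 were called higher, beside 14.8% of all genes. Neither count is independent of the selection, which used these libraries. Against xylan-galactomannan, where the selection used the aspen libraries but not the others, 17 of the 37 and 33 of the 54 were called higher on aspen and 1 and 0 lower, beside 11.5 and 14.7% of all genes.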

How the data were processed

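Polyadenylated RNA was sequenced from mycelium. The authors aligned the reads with TopHat2 and made the deposited count table with HTSeq, with 1 whole-number count per gene model and library (strand setting not given in the sources used here). Another deposited table held normalised values (signal, counts divided by 1 DESeq size factor per library by the authors), which were used to check the size factors. These factors also served as the scale of the median-of-ratios alternative. Deposited gene lengths, in bases, gave levels per kilobase. Counts of all 15 libraries were fitted with edgeR 4.0.16 in R 4.3.3 (filterByExpr, TMM scaling, robust quasi-likelihood test, Benjamini-Hochberg adjustment). Genes with adjusted p under 0.05 and an absolute log2 fold change over 1 were called. Single-library floors of 3 counts cover counting error only. Scripts were tested on simulated data.

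Named were the 10 largest rises and falls among called, non-overlapping genes of at least 50 CPM, the top 12 by CPM and top 10 by CPM per kilobase, the 10 largest gains and losses of mean CPM, all annotated CAZymes, and of the other annotation groups up to 4 members and all not called. Members and lists were chosen with earlier results of these data known. Alternatives were other scalings, filters, DESeq2 1.42.0, a fold-threshold test, a replicate block, a length correction, halved counts and leaving out each library.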

Additional observations from a re-analysis of the deposited data

Results flagged for a closer look

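Among the genes left out of the test for low counts, 5 had more than 3 counts in every aspen library and none in any maltose library. They were looked at because they lie outside the tested genes. Gene 1558471 had 52, 6 and 18 counts in aspen 1 to 3, 1668222 had 22, 4 and 8, 1753893 had 8, 6 and 10, 478946 had 4, 6 and 11, and 655179 had 6, 5 and 5. The highest value is that of aspen 1 for 1558471. A count of 0 allows up to 3 counts per library, so that these differences lie close to what the depth can show. The reverse, over 3 counts in every maltose library and none on aspen, was found for 1 gene.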

How the results depend on the processing

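The number of genes called depended on the scaling and on how the fold threshold was applied. Library size in place of TMM gave 2619 genes higher and 914 lower (74.1% of calls higher, in place of 50.8%) and brought the median change over all genes to 0.377 in log2. A test against the fold threshold itself (glmTreat) called 695 genes higher and 638 lower, and 87, 1247 and 971 genes in aspen against wheat straw, Avicel and xylan-galactomannan, in place of 1527, 3234 and 3075. DESeq2 called 1746 higher and 1696 lower. Median-of-ratios scaling, no filter, a filter at 1 CPM, the 6 libraries alone, halved counts and removal of the length trend gave 1521 to 1702 higher and 1553 to 1758 lower. Leaving out 1 library gave 1447 to 1744 higher and 1425 to 1680 lower. Libraries of the same number did not deviate together (correlations of 0.031, -0.032 and 0.089), and the fit with the replicate number as a block called 1650 higher and 1585 lower.

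Over the genes named and the remaining genes of the study's lists, 3332 values kept their direction and call, 98 lost the call, 16 gained it and 3 reversed. The reversed values were 1606211, not called, at 0.041 under library size, and without maltose 3 the called genes 1580131 (0.047, with a range of -2.76 to 0.047 when 1 library was left out) and 1588204 (0.072, with -5.94 to 0.072). The block ended the calls of these last genes and of 1757751. DESeq2 gave no adjusted p for 1583293, 1569640 and 1615426. Depth limits genes near the floor.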

Other observations

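Several unannotated genes of the study's lists, named here by the size of their rise after those of the report, changed as much as the annotated ones. Gene 1596407 had 5.6, 5.55 and 5.21 CPM on maltose and 685, 342 and 272 on aspen (edgeR, log2FC 6.31 ± 1.03, adjusted p = 0.00033), and it was higher on aspen than on wheat straw (adjusted p = 0.017). Gene 663790 had 9.87, 5.59 and 1.94 CPM on maltose and 380.2, 353 and 229.8 on aspen (log2FC 5.78 ± 0.96, adjusted p = 0.00036), and it too was higher than on wheat straw (adjusted p = 0.011). In both, aspen 1 was the highest aspen library, and without maltose 1 the log2FC of 663790 was 6.41. Gene 1595887 had 1.59, 1.32 and 8.72 CPM on maltose and 156, 219 and 190.3 on aspen (log2FC 5.62 ± 1.00, adjusted p = 0.00061, and 7.01 without maltose 3), and gene 1671783 had 11.2, 12.3 and 7.14 CPM on maltose and 346, 653 and 381 on aspen (log2FC 5.49 ± 0.97, adjusted p = 0.00058). Neither of these passed the test against wheat straw, where they had 128 ± 36.8 and 121 ± 64.8 CPM (n = 3). All of them were higher on aspen than on Avicel, and the aspen and maltose libraries did not overlap. The study chose these genes on the same libraries, so that their direction is not independent evidence.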
